A study of Mus musculus with 5 samples.

Results

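The erythroid miRNAs miR-451a, miR-486a and miR-144 were followed in back skin of aged mice during wound healing. All array probes whose names begin with miR-451a, miR-486a or miR-144 were taken, which gave 5 of the 1900 mouse miRNA probes: mmu-miR-451a, mmu-miR-144-5p, mmu-miR-144-3p, mmu-miR-486a-5p and mmu-miR-486a-3p, written without the species prefix from here on. Arms are the 5p and 3p strands of a miRNA hairpin, named after the end they come from. There was 1 single-colour array each for unwounded skin of female 2-year-old mice (D0), for wounds taken 3, 5 or 7 days after a full-thickness punch of 3 mm in such mice (D3, D5 or D7), and for back skin of female 8-week-old mice without a wound. All skin was taken in telogen, the resting stage of the hair cycle. The labels give no strain and do not state whether an array holds the RNA of 1 animal or of a pool. A condition with 1 array allows no test, so p-values are absent throughout. Each miRNA was printed on 2 spots, whose values are given separately and show the spread within an array only.

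Red blood cells lose their nucleus but retain small RNAs, and miR-451a is among the most abundant of them. miR-144 and miR-451a are transcribed together under the control of the erythroid factor GATA1. Mature miR-451a is made without Dicer: the Argonaute protein Ago2 cuts its short hairpin, so that the mature strand runs from the stem into the loop. miR-486 lies in the gene of ankyrin 1, a protein of the red cell membrane skeleton, and is also known from skeletal muscle. Mouse back skin holds blood vessels and a thin muscle layer, the panniculus carnosus, and a full-thickness wound opens both. RNA of whole skin cannot tell fewer cells of a type from less RNA in each cell, nor more blood in a sample from more miRNA in its cells.

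The target sequences of the 5 probes are shown because they identify what was measured, with the seed (bases 2 to 8, which pair with target mRNAs) in capitals and read 5′ to 3′ from the array files.
miR-451a: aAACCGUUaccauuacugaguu
miR-144-5p: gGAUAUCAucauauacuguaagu
miR-144-3p: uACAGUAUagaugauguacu
miR-486a-5p: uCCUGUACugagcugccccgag
miR-486a-3p: cGGGGCAGcucaguacaggau
miR-486b-3p: cGGGGCAGcucaguacagga
These miRNAs share no seed with each other, apart from miR-486a-3p and miR-486b-3p. No other mouse probe on the array has the seed of miR-451a, of either miR-144 arm or of miR-486a-5p. That of miR-486a-3p is found in 3 other probes, miR-486b-3p, miR-326-5p and miR-6954-5p. The array files list the probe of miR-486a-5p for miR-486b-5p as well, so its signal belongs to both. The target of miR-486b-3p, which is not among the 5 probes, is that of miR-486a-3p without its last base. RNA of either could bind to both probes, and how far it did was not tested. The GC content is 36.4% for miR-451a, 30.0% for miR-144-3p, 30.4% for miR-144-5p, 63.6% for miR-486a-5p and 61.9% for miR-486a-3p.

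The hairpins of the miR-144 and miR-451a locus show how the members lie together. They are RNA sequences from RefSeq on the GRCm38.p6 assembly, with the mature strands in capitals, and the mature miR-451a and miR-144 sequences in RefSeq equal those of the array. Mir144 is at chr11:78073005-78073070 and Mir451a at chr11:78073170-78073241, both on the plus strand, with 99 bases between them.
Mir144: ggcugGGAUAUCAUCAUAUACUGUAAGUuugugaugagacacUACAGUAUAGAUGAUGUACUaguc
Mir451a: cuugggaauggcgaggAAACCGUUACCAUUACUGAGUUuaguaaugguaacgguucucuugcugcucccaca
In the hairpin of Mir451a the mature strand passes into the loop, and an unbroken run of 16 of its bases can pair with the opposite side of the stem. Mir451b, the gene of miR-451b, occupies the same 72 bases on the minus strand, so its hairpin is the reverse complement. Mir486 lies within the bounds of Ank1 on chromosome 8. An unbroken run of 20 bases of miR-486a-5p is complementary to miR-486a-3p.

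The members differed most in whether they were seen at all. miR-451a was bright on all arrays, both miR-486a arms were measured on all arrays, and the miR-144 arms lay at the background. On each array a miRNA was taken as detected when the mean of its spots passed the 95th percentile of 4 empty spots, and as bright above 2 times that level. The detection level was 105 on the D0 array, 58.3 on D3, 61.1 on D5, 99.0 on D7 and 107 on the array of young skin, and between 589 and 1768 of the 1900 miRNAs passed it. The medians of the scanned intensity over all miRNA spots lay between 62.9 and 111, so that most of the array was close to background.

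**Figure D1:**
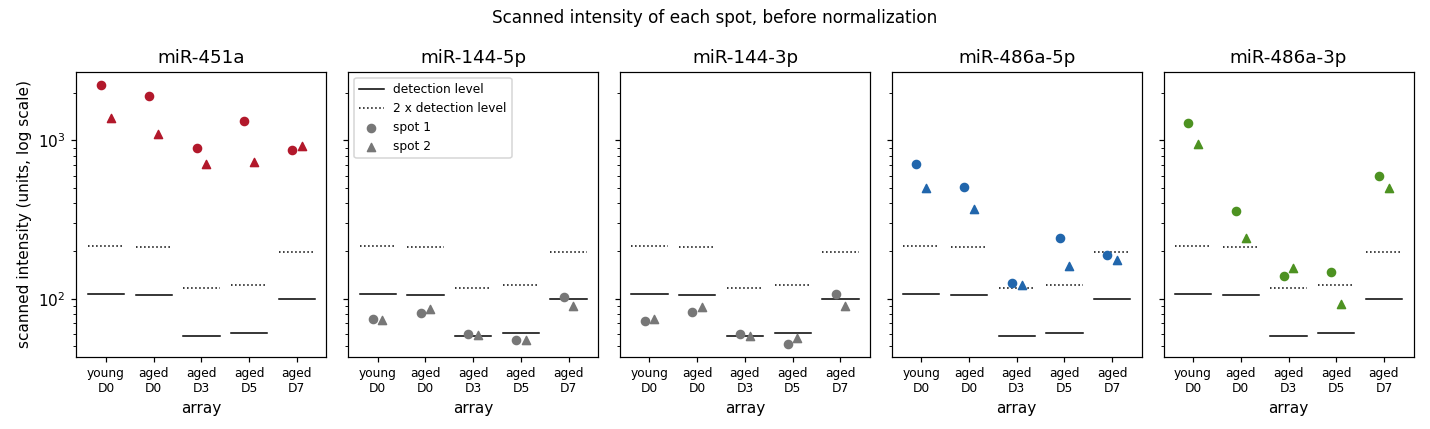
Scanned intensity of the 5 probes on a log axis, before normalization, for young D0 and aged D0, D3, D5 and D7. Circles and triangles are the first and second spot, solid lines the detection level of each array and dotted lines 2 times that level. miR-451a lay between 708 and 2247 on all arrays, whereas both miR-144 arms stayed near the solid lines.

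The 2 spots of miR-451a were scanned at 1918 and 1101 units on D0, 892 and 708 on D3, 1324 and 733 on D5, 868 and 925 on D7, and 2247 and 1385 in young skin. Their means were between 9.05 and 16.9 times the detection level. The first spot was brighter on 4 of the 5 arrays, by up to 1.81-fold on D5. Over all bright miRNAs of an array the median of the first spot over the second was between 0.930 and 1.05. The ratio of miR-451a was above the 90th percentile of bright miRNAs on 4 arrays, such as D0 with 1.74 against 1.37. On D7 its 0.938 was close to the median of 0.930.

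The 2 spots of miR-486a-5p, the arm usually loaded into Argonaute, read 511 and 368 on D0, 125 and 122 on D3, 242 and 160 on D5, 188 and 177 on D7, and 710 and 504 in young skin. Those of miR-486a-3p, the other arm of the hairpin, read 360 and 242, 139 and 156, 147 and 93.3, 599 and 499, and 1293 and 951 in the same order. Both arms were detected on every array. miR-486a-5p was not bright on D7, at 1.84 times the detection level, and miR-486a-3p was not bright on D5, at 1.97 times. Ratios on these 2 days therefore rest on low signals. On D3 both arms were bright but close to that limit, miR-486a-5p at 2.12 times the detection level and miR-486a-3p at 2.53 times.

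miR-144-3p had mean scanned intensities of 85.4 on D0, 59.2 on D3, 54.5 on D5, 99.0 on D7 and 73.4 in young skin, and those of miR-144-5p were 83.4, 59.6, 54.6, 96.3 and 74.1. Only the D3 array put either arm above the detection level, by 1.02-fold for both. That level was passed by 1768 miRNAs on D3. On each of the 5 arrays both arms were dimmer than the median miRNA. In the authors' processed values both arms were listed at 0.02 or less on every array, as were 436 of the 1900 miRNAs at 0 on D0. Neither arm was bright on any array, and no ratio is given for them.

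The probe of the opposite strand, miR-451b, was also dim, with means of 103, 68.1, 69.0, 136 and 118 on D0, D3, D5, D7 and in young skin. This was at most 1.37 times the detection level, and on D0 it was below it. It was not bright on any array.

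Ratios were formed after background correction with an offset of 50, quantile normalization over the 5 arrays and averaging of the spots. In the normalized values miR-451a had a level of 1719 in unwounded aged skin, of 1034, 1593 and 752 in the wounds of D3, D5 and D7, and of 755 in young skin. Neighbouring levels were taken as apart when their log2 ratio passed 2 SD of a 2-spot mean log2 ratio. This SD was estimated from the differences between the repeat spots of bright miRNAs, and is smaller than that of single spots. The levels on D0 and D5 differed by less than that, as did those on D7 and in young skin. The place of young skin in this order rests on the normalization, since before it young skin had the highest scanned mean of miR-451a, 1816 against 1510 on D0. The level of miR-486a-5p was 620 on D0, 147 on D3, 279 on D5, 145 on D7 and 310 in young skin, so that D0 stood above the wounds. It also stood above young skin in these values, but not before normalization, where the scanned means were 439 on D0 and 607 in young skin. Its levels on D3 and D7 did not differ beyond the spots, and nor did those on D5 and in young skin. For miR-486a-3p the levels were 411, 180, 164, 463 and 518 in the same order. In these values they formed a high set of D7, young and aged D0 and a low set of D3 and D5. Neighbours in this order did not differ beyond the spots within either set, while D3 was below aged D0 by more than them. Young and aged D0, which are not neighbours, differed by more than 2 SD, with a log2 ratio of -0.332 and an SD of 0.138. The high set rests on the normalization, since the scanned means were 1122 in young skin, 549 on D7 and 301 on D0.

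**Figure D2:**
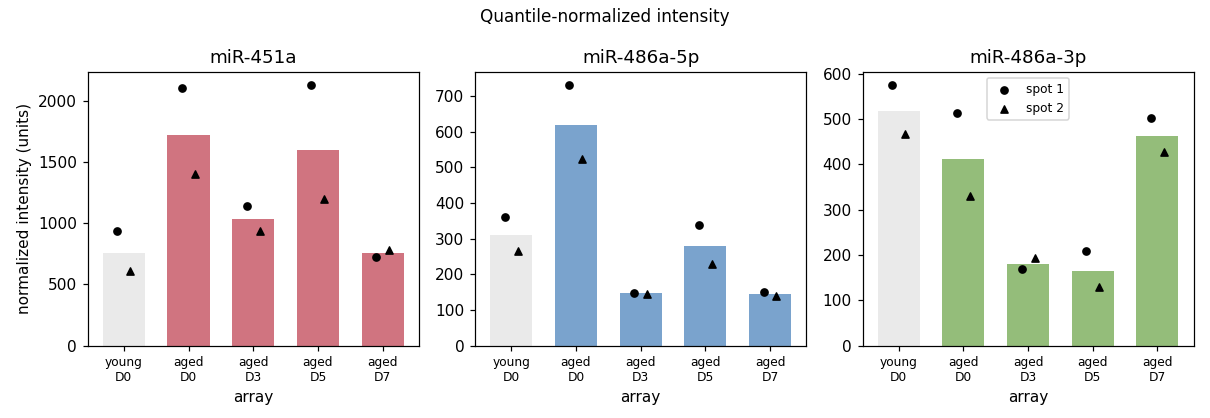
Quantile-normalized intensity on a linear axis from 0 for miR-451a, miR-486a-5p and miR-486a-3p. Bars are the mean of 2 spots, circles and triangles the first and second spot, and the grey bar is young skin. miR-486a-5p was higher on aged D0, at 620 units, than in the wounds, while its order against young skin turned without normalization, where aged over young was 0.732. miR-486a-3p was low on D3 and D5.

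After wounding, miR-486a-5p was lower than at D0 on all days. Its ratio to D0 was 0.236 on D3, with 0.203 and 0.275 from the 2 spots. The D5 ratio was 0.450, with 0.462 and 0.437, and the D7 ratio 0.233, with 0.205 and 0.266. The SD of a 2-spot mean log2 ratio was 0.14 for D3, 0.13 for D5 and 0.25 for D7, and the log2 ratios of miR-486a-5p were -2.08, -1.15 and -2.10. Among 207 miRNAs bright at D0 and at D3 alike, 3 had a lower D3/D0 ratio. On D7 none of 203 had a lower one, although the D7 signal of miR-486a-5p itself was not bright. The ratios stayed below 1 under all 10 alternatives of the processing, from 0.130 to 0.392 for D3, from 0.356 to 0.631 for D5 and from 0.127 to 0.446 for D7.

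miR-451a changed less than miR-486a-5p, and in these values both stood nearest to D0 on D5. Its ratio was 0.601 on D3, with 0.542 and 0.667 from the spots. It was 0.927 on D5, where the spots gave 1.01 and 0.850, and 0.437 on D7, with 0.342 and 0.558. On D5, 104 of the 204 bright miRNAs had a higher ratio and 99 a lower one, so that miR-451a lay in the middle. On D7 only 11 of 203 had a lower ratio. Over the alternatives the D3 ratio ran from 0.355 to 0.746, the D5 ratio from 0.513, with the spike controls, to 0.983, and the D7 ratio from 0.370 to 0.717. The mean of the spots was thus below 1 on D5 under all 11 settings, although the spots lay on both sides of 1.

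miR-486a-3p was lower than at D0 on D3 and D5, and not on D7. D3 had a ratio of 0.439, D5 of 0.398 and D7 of 1.12. The D3 spots disagreed, with 0.328 and 0.587, and the D5 spots gave 0.405 and 0.391. Over the alternatives the D3 ratio ran from 0.312 to 0.686 and the D5 ratio from 0.252 to 0.568. On D7 the spots lay on both sides of 1, at 0.975 and 1.30, and the ratio over the alternatives was between 1.10 and 2.13.

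Counted over the 5 probes, 2 were at least 2-fold lower on D3, both arms of miR-486a, beside 2.65% of 1772 miRNAs detected on at least 1 of both arrays (3.44% were at least 2-fold higher and 6.09% different either way). On D5 these were again both arms of miR-486a, beside 2.41% of 1079 (2.87% higher, 5.28% either way). On D7 they were miR-451a and miR-486a-5p, beside 1.79% of 1565 (2.56% higher, 4.35% either way). No member was at least 2-fold higher on any day in these values. Scaled to the 5S probes, D7 kept its count of 2 with other members: miR-486a-3p was 2-fold higher, at 2.13, and miR-451a was no longer 2-fold lower, at 0.717. The members were not chosen at random, so these shares are a description. Most miRNAs counted were close to background: of 1768 detected on D3, 342 were bright. Among miRNAs bright on both arrays, 2-fold lower ratios were more common. On D3, 38 of 207 lay below miR-141-3p at 0.471. On D5, 21 of 204 lay below miR-206-3p at 0.505, and on D7, 20 of 203 below miR-133b-3p at 0.498. The counts of members depended on the normalization, and with scaling to the median of all miRNA probes none was 2-fold lower on D5.

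Since a factor common to a whole array cancels in a ratio to the bright miRNAs, each member was also set against the median of the miRNAs bright on both arrays. This median stood at 0.781 for D3, 0.932 for D5 and 0.895 for D7. Relative to it, miR-451a was at 0.770 for D3, 0.995 for D5 and 0.488 for D7. Of the 11 settings, the 5 that leave the arrays as they are or scale each one as a whole give 1 and the same relative value by construction. Over the settings the D7 value lay between 0.471 and 0.506, and that on D5 on both sides of 1, from 0.878 to 1.02. miR-486a-5p was at 0.303, 0.482 and 0.261, and miR-486a-3p at 0.561, 0.427 and 1.26. These 2 arms kept their side of 1 on each day under all settings.

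**Figure D3:**
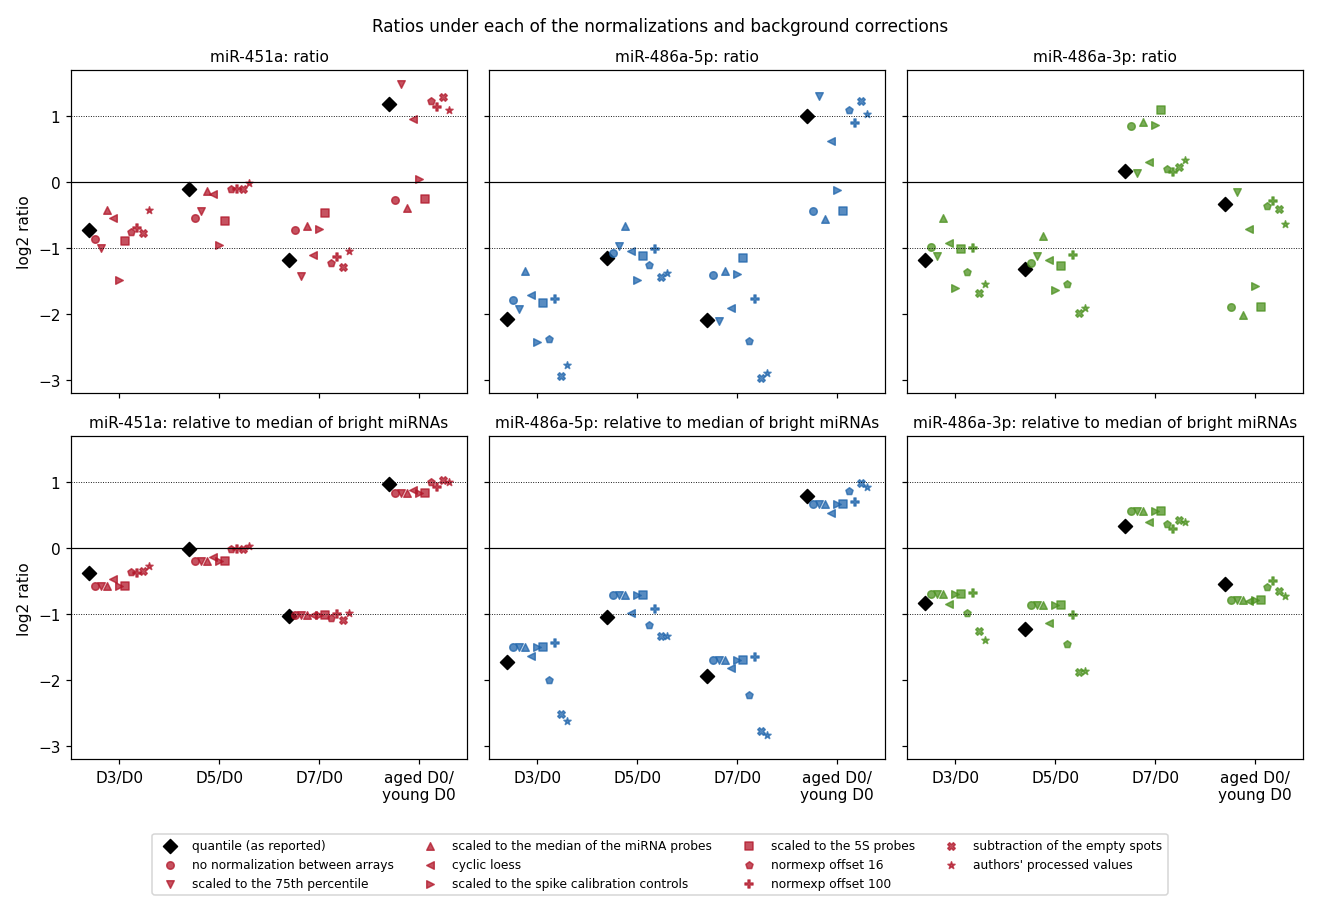
Log2 ratios of miR-451a, miR-486a-5p and miR-486a-3p in the 4 comparisons, as such (upper row) and over the bright miRNAs' median (lower row). Each symbol is 1 way of processing, black diamonds are the reported values and dotted lines mark 2-fold. The aged over young ratios of miR-451a and miR-486a-5p lie on both sides of 0 in the upper row and above 0 in the lower row.

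The members changed by different amounts, although in the quantile-normalized values miR-451a and miR-486a-5p both stood nearest to D0 on D5. The ratio of miR-451a was 2.54 times that of miR-486a-5p on D3, with 2.67 and 2.42 from the spots, and 2.06 times on D5 and 1.87 times on D7. This ratio of ratios stayed above 1 under every alternative, with 1.44 as its lowest value on any day, so that the ratio of miR-486a-5p was the lower one on all days. These comparisons share the D0 array. Between the probes of both miR-486a arms, the change of the 5p arm over that of the 3p arm was 0.539 for D3, 1.13 for D5 and 0.208 for D7. On D7 the spots gave 0.210 and 0.205, and the range over the alternatives was 0.106 to 0.262. On D7 the ratio of the 5p probe was low while that of the 3p probe was not, but the 5p signal was not bright. The 5p probe is also listed for miR-486b-5p, so these values cannot be assigned to the arms of a single precursor.

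The nearly identical probe of miR-486b-3p can be read beside that of the 3p arm. It was detected on all arrays but bright on none, with mean scanned intensities of 143 on D0, 77.4 on D3, 81.1 on D5, 159 on D7 and 169 in young skin. Against D0 it stood at 0.600 for D3, 0.685 for D5 and 0.782 for D7. These ratios were below 1 on all 3 days, but on D7 the log2 ratio of -0.354 did not pass 2 SD, at an SD of 0.247. The D7 ratio of miR-486a-3p lay above 1, as did that of miR-486b-3p under 2 of the 11 settings. The ratio of miR-486a-3p over that of miR-486b-3p was 0.731 on D3, where it ran from 0.720 to 1.41 over the settings. It was 0.581 on D5, from 0.569 to 0.682, and 1.44 on D7, from 1.33 to 1.94. For aged over young skin it was 0.609, from 0.303 to 0.667. For aged over young skin miR-486b-3p was at 1.30, with 1.47 and 1.16 from the spots, and above 1 under 8 of the 11 settings.

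Before normalization, miR-451a averaged 1510 units in aged and 1816 in young unwounded skin. Quantile-normalized, aged skin had 2.28 times the level of young skin, with 2.25 and 2.30 from its spots. For miR-486a-5p the mean intensities were 439 and 607 and the normalized ratio was 2.00, with 2.02 and 1.98, which is just past 2-fold. miR-486a-3p differed, with intensities of 301 and 1122 and a ratio of 0.794, with 0.894 and 0.706. Thus 2 of the 5 probes were at least 2-fold higher in aged skin, beside 2.31% of 779 miRNAs (6.03% were at least 2-fold lower and 8.34% different either way), and miR-486a-3p was lower. Among the 210 miRNAs bright on both arrays, 15 had a higher ratio than miR-486a-5p. Without normalization and with median, spike or 5S scaling no member was 2-fold higher, and the 1 member past 2-fold was miR-486a-3p, lower in aged skin, at 0.267, 0.246, 0.333 and 0.269.

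The direction of the age difference depended on the normalization for miR-451a and miR-486a-5p. Without normalization between arrays their ratios were 0.827 and 0.732, when scaled by the miRNA probes' median 0.762 and 0.675, and with scaling to the 5S ribosomal RNA probes 0.833 and 0.737. With the spike calibration controls they were 1.03 and 0.913. The other 6 alternatives gave values above 1 for both. Set against the 210 bright miRNAs' median, both were higher in aged skin under every setting. miR-451a was at 1.97, with a range of 1.79 to 2.05, and 8 of the 210 had a higher ratio. miR-486a-5p was at 1.73, with a range of 1.45 to 1.98, and 15 had a higher ratio. miR-486a-3p was at 0.687, between 0.573 and 0.708, and its own ratio was below 1 under all settings, from 0.246 to 0.897. The change of the 5p arm over that of the 3p arm was 2.52, with 2.26 and 2.80 from the spots. The probe of miR-486b-3p, at 1.30, lay on the other side of 1 from that of miR-486a-3p.

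Markers of other cells moved between the same arrays. Of 7 miRNAs of skeletal muscle, 4 were bright on D0 and in each wound: miR-1a-3p, miR-133a-3p, miR-133b-3p and miR-206-3p. All 4 were at least 2-fold lower on D3, with a median ratio of 0.294 and a range of 0.190 to 0.343. The D5 and D7 medians were 0.512 and 0.516, with 0.966 for aged over young skin. The summed normalized intensity of the list was 28730 for D0, 8996 for D3, 12288 for D5, 14650 for D7 and 32753 in young skin. miR-208a-3p, miR-208b-3p and miR-499-5p, found in heart and slow muscle, were not bright on any array. miR-486a-5p was thus lower on the days on which the muscle miRNAs were lower, but this was not particular to them. Medians of the epithelial list given below were 0.428, 0.438 and 0.571 on these days. On D7 miR-486a-5p, at 0.233, lay below all 4 muscle miRNAs, which ran from 0.458 to 0.716. Its place beside them depended on the normalization. Over the settings, its change over that of miR-133a-3p ran from 0.385 to 1.30 on D3 and from 0.713 to 1.85 on D5. The D7 range was 0.279 to 0.916. For aged over young skin the miR-486a-5p ratio of 2.00 stood beside the muscle median of 0.966. Before normalization both were lower in aged skin, with 0.732 for miR-486a-5p and scanned sums of 33071 against 65173 for the muscle list. The part of the muscle miRNAs in the ratios of miR-486a-5p was not tested.

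Other miRNAs that are abundant in red cells, but also made in many other cells, did not share one direction. Of the 6 on this list, miR-16-5p, miR-92a-3p, miR-25-3p, miR-20b-5p and miR-106b-5p were bright and miR-363-3p was not. Their median ratio was 0.961 for D3, 0.912 for D5, 0.838 for D7 and 1.09 for aged over young. miR-92a-3p, made in many cell types, had ratios of 0.961 on D3, 1.10 on D5, 0.497 on D7 and 2.35 for aged over young. In these values miR-20b-5p lay on the other side of 1 from miR-451a, with 1.44 on D7 and 0.563 for aged over young. For age this depended on the normalization: miR-20b-5p was below 1 under all 11 settings, and miR-451a under 3 of them.

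The leukocyte list of 5 miRNAs had a summed normalized intensity of 1088 for D0, 5328 for D3, 3688 for D5, 3706.5 for D7 and 2652 in young skin. Of the D3 sum, miR-223-3p alone gave 3771.5. Before normalization the sums were 901, 4071, 2389.5, 4172 and 5829 in the same order, so that young skin then stood highest. Only miR-150-5p of this list was bright on D0. Of 7 epithelial miRNAs, 5 were at least 2-fold lower on D3, while 1, miR-200c-3p, was 2-fold higher, at 2.10. On D5, 6 of the list were bright on both arrays, and 3 of these were at least 2-fold lower. The median ratios were 0.428 for D3, 0.438 for D5 and 0.571 for D7. For aged over young skin the epithelial median was 1.45. Of 2 endothelial miRNAs only miR-126a-3p was bright, and it had ratios of 0.714, 1.17 and 1.02 after wounding and of 1.06 for aged over young, so this vascular miRNA did not follow miR-451a on D7 or with age. The 3 fibroblast miRNAs had medians of 0.786, 1.29 and 2.17 after wounding. Their part in the ratios of the members was not tested.

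**Figure D4:**
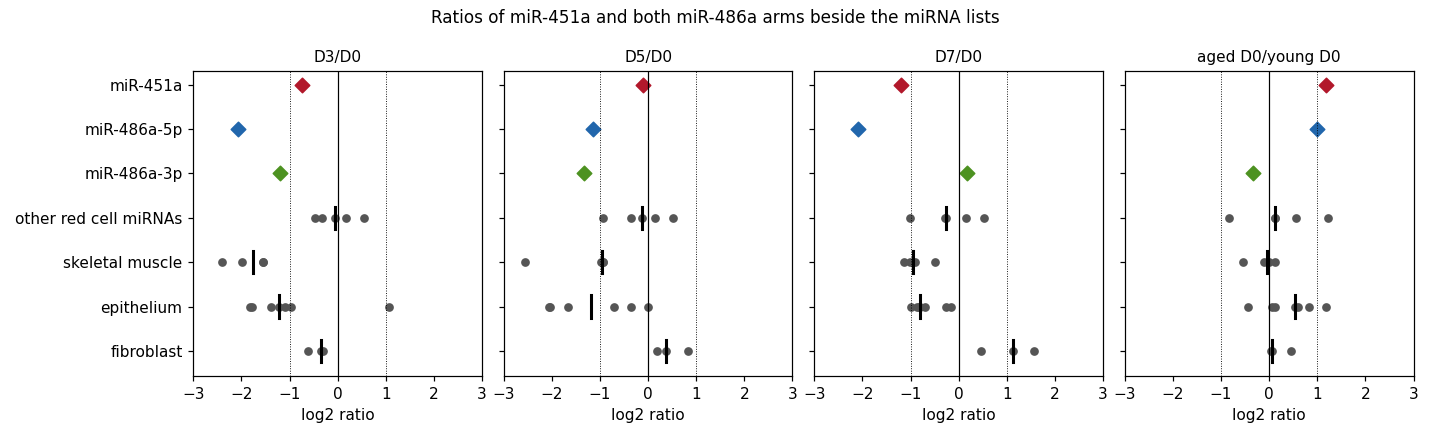
Log2 ratios of the 3 measured members (diamonds) beside the single miRNAs of 4 lists (grey points) that were bright on both arrays, with the median of each list as a black bar; dotted lines mark 2-fold. In the quantile-normalized values miR-486a-5p lay among the muscle miRNAs on D3 and below them on D7. In scanned means its D3 ratio, 0.281, was above the highest of theirs, 0.224. miR-451a, at 0.437 on D7, lay near the lowest of the red cell list, miR-92a-3p at 0.497, and their spots overlapped.

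In plasma, miR-451a is often set against miR-23a-3p, a miRNA that is scarce in red cells, to see whether red cells have burst. The change of miR-451a over that of miR-23a-3p was 0.703 on D3, with 0.633 and 0.780 from the spots, 1.04 on D5 and 0.480 on D7, with 0.354 and 0.649. For aged over young skin it was 1.90, with 1.88 and 1.91. Over the alternatives it ran from 0.682 to 1.07 on D3, from 1.01 to 1.61 on D5, from 0.449 to 0.732 on D7 and from 1.23 to 2.03 for age. The D7 and aged values thus kept their side of 1 under all settings, and so did both of their spots as reported. The D5 value stayed above 1 under all settings, but its spots gave 1.12 and 0.961. The D3 value did not keep its side of 1.

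The ratios of miRNAs of like GC content were set beside those of the members. On D3 the 36 bright miRNAs within 5 percentage points of the GC content of miR-486a-5p had a median ratio of 1.01, against its own 0.236. The 48 near miR-451a had a median of 0.678 on D3, close to its own 0.601, and the 47 near it on D7 had a median of 1.02, against its 0.437. For aged over young skin the medians were 1.04 over the 49 near miR-451a and 1.32 over the 36 near miR-486a-5p.

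The miRNAs whose profiles over the 5 arrays came closest were different for each member. The search covered miRNAs bright on all 5 arrays and used the root mean square difference of centred log2 values. For miR-451a these were miR-709, miR-92b-3p and miR-484, at 0.14 to 0.15, with Pearson's r between 0.96 and 0.97. For miR-486a-5p they were miR-708-5p at 0.21, miR-378a-3p at 0.24 and miR-378c at 0.27. For miR-486a-3p they were miR-10b-5p at 0.15, miR-148a-3p at 0.22 and miR-100-5p at 0.27. Between the members the differences were larger, at 0.60 for miR-451a and miR-486a-5p, 0.90 for both miR-486a arms and 1.06 for miR-451a and miR-486a-3p. These values rest on 5 arrays that share 1 normalization and are a description only.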

How the data were processed

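The authors deposited, for each of 5 single-colour Cy3 arrays run by a service provider, each spot's median intensity before normalization, linear, with empty background columns. They also deposited a table of processed intensity for each probe, whose background correction and normalization are not given in the sources used here. Here, scanned intensities were background corrected with limma's normexp (offset of 50, fitted on all spots), control spots were left out, log2 values were quantile normalized over the 5 arrays and the 2 spots were averaged. Arrays limit the precision by their number, and no test was run because each condition has 1 array. For detection the 95th percentile of 4 empty spots was used. Members are the probes named by the rule in the opening; the lists of miRNAs of other cells were written from general knowledge, and members, lists and alternatives were chosen with earlier results of these data known. Named besides them were miR-23a-3p, the related miR-451b and miR-486b-3p, and the 3 miRNAs closest to each measured member. The 10 alternatives of the processing left arrays unnormalized, or scaled them by the 75th percentile over miRNAs detected everywhere, the miRNA median, 11 spike controls or 5 probes of 5S, or used cyclic loess, offsets of 16 and 100, subtraction of the empty spots with a floor of 1, and the authors' values with a floor of 1. For counts, detection at 2 times the level and thresholds of 1.5-fold and 3-fold were added. The normalization was tried on simulated arrays, all built from the aged D0 profile, with known changes in bright miRNAs only. Arrays of unlike intensity distribution and dim probes were therefore not covered. Of sequences, matches to RefSeq were found for the miR-144 and miR-451 genes, and miR-486 sequences are those of the array files. Python 3.11.15 (numpy 2.4.6, pandas 2.3.3, matplotlib 3.10.9) and, for limma 3.58.1, R 4.3.3 were used.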

Additional observations from a re-analysis of the deposited data

How the results depend on the processing

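No paired analysis was possible because no condition has a second array. For these values the cause was not tested, and another threshold changes counts by construction. The D3, D5, D7 and aged over young ratios listed here moved by at least the SD of a 2-spot mean log2 ratio. For miR-451a these were 0.685 on D5, 0.604 on D7 and 0.827 for age without normalization. They were 0.500 on D3, 0.733 on D5 and 2.78 for age with the 75th percentile, and 0.746 on D3, 0.629 on D7 and 0.762 for age with the median. Cyclic loess gave 0.686 on D3 and 1.94 for age, spike controls 0.355, 0.513, 0.612 and 1.03, and 5S probes 0.534, 0.660, 0.717 and 0.833 in the order D3, D5, D7 and age. The authors' values gave 0.740 on D3. For miR-486a-5p, no normalization gave 0.288 on D3, 0.376 on D7 and 0.732 for age, the 75th percentile 0.263, 0.508 on D5 and 2.46, and the median 0.392, 0.631, 0.392 and 0.675. Cyclic loess gave 0.303 on D3 and 1.54 for age, spike controls 0.186, 0.356, 0.381 and 0.913, and 5S probes 0.280 on D3, 0.446 on D7 and 0.737 for age. An offset of 16 gave 0.191 on D3 and 0.188 on D7, and an offset of 100 gave 0.293 and 0.290. Subtraction gave 0.130, 0.368, 0.127 and 2.34, and the authors' values 0.146, 0.382 and 0.134 on D3, D5 and D7. The count of members at least 2-fold different, 2 in each comparison, was 1 on D3, D7 and for age without normalization, 1 on D5 with the 75th percentile, and 1 on D3 and D7, 0 on D5 and 1 for age with the median. It was 1 on D3 and 0 for age with cyclic loess, 5 on D3 and 1 on D7 and for age with spike controls, 1 for age with 5S probes and with an offset of 100, and 1, 0, 1 and 0 at 3-fold. The 5 with spike controls include both miR-144 arms, which lie at the background. For age, the member counted without normalization and with median, spike or 5S scaling was miR-486a-3p, lower in aged skin. Low signal limits miR-486a-5p on D3 and D7 and miR-486a-3p on D3 and D5, and no ratio of miR-144 can be read.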
